A study of Mus musculus with 6 samples.

Results

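The sterol genes described here are 31 genes of cholesterol synthesis, sensing and efflux, taken by symbol from the 27179 gene numbers of the deposited count table, and all 31 were found. They comprise 18 enzymes of the synthesis pathway, 5 genes that control it through the sterol regulatory element binding proteins (SREBPs), and 8 genes of the liver X receptors (LXRs), efflux, storage and lysosomal export. They were measured by RNA sequencing in CD8+ T cells of gBT-I mice, a strain with a transgenic T cell receptor for a herpes simplex virus glycoprotein B peptide. Whole spleen cells were stimulated with this peptide plus LPS, received IL-2 between days 2 and 5, and were collected on day 6. The control group (3 libraries) had no further treatment, and the butyrate group (3 libraries) had butyrate, a short-chain fatty acid that inhibits histone deacetylases, added on day 3. The sources used here give neither the butyrate dose nor any cell sorting. The labels do not tie the replicates to separate mice or cultures. The spread that the p-values rest on is therefore that between these 6 libraries, and it may be technical.

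Cholesterol is built from acetyl-CoA through mevalonate, isoprenoid diphosphates, squalene and lanosterol. When sterols are scarce in the endoplasmic reticulum, SCAP carries SREBP2 to the Golgi, where it is cut to a transcription factor that switches on the synthesis genes. When sterols are plentiful, the INSIG proteins hold SCAP back. Oxysterols activate the LXRs, which induce export pumps and other genes that lower the sterol content of a cell. Activated T cells are known to raise sterol synthesis as they grow and divide.

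Library totals ran from 5383380 to 6244350 counts. Levels are in CPM, read counts scaled to a common library size with TMM factors, and a mean is given with the SD of 3 libraries. A gene is called higher or lower where edgeR's quasi-likelihood test gave a Benjamini-Hochberg adjusted p under 0.05 over all 11740 genes tested. This main fit has no block for the replicate number. Of the genes tested, 23.5% were called higher and 22.5% lower with butyrate. Of all calls, 51.1% were higher ones, a share that upper quartile scaling moved to 61.8%. The 8 T cell markers summed to 3790 to 4290 CPM in control and 3541 to 4548 CPM with butyrate, with Cd8a at 379 to 505 CPM over the 6 libraries. Trac alone held 1844 to 2481 CPM of the sum in control and 2057 to 3209 CPM with butyrate. The sums thus say little of the other 7 markers. Of these 8, Cd3e was called lower (314 ± 27.4 to 206 ± 10.1 CPM, SD, n = 3, edgeR adjusted p = 0.000816) and 7 were not called. With the replicate number as a block in the fit, 4 of these 8 were called lower (Cd3e, Cd3g, Cd2 and Cd5) and 1 higher (Trac, edgeR adjusted p = 0.0287).

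Synthesis genes were lower with butyrate at most steps of the pathway. Of the 18 enzymes, 13 were called lower, 0 were called higher and 5 were not called. Over all genes tested, 22.5% were called lower and 23.5% higher. The median log2 fold change of the 18 was -0.46, against 0.003 over all genes tested. In 15 of the 18, every butyrate library lay below every control library, which held for 28.2% of all genes tested. Summed over the 18 genes, the level was 1445, 1765 and 1793 CPM in the control libraries and 1037, 1185 and 1190 CPM in the butyrate libraries. In bulk samples, fewer cells of a type and less RNA per cell cannot be told apart.

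**Figure D1:**
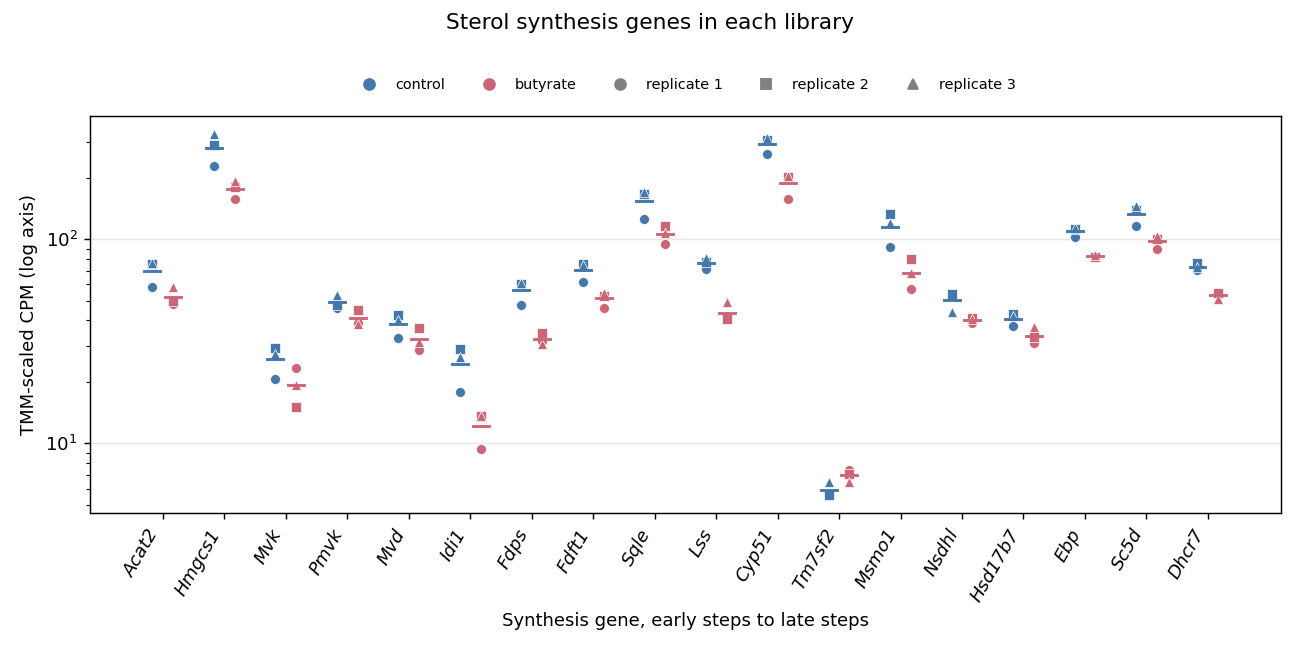
TMM-scaled CPM (log axis) of the 18 synthesis genes in each of the 6 libraries, in pathway order. Points are libraries, shapes are replicate numbers and bars are group means. Butyrate libraries lie below all control libraries for 15 genes, and Mvk, Mvd and Tm7sf2 overlap.

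The early enzymes join acetyl-CoA units and make mevalonate. Hmgcs1 encodes the synthase that makes HMG-CoA (chromosome 13, 119690351 to 119708260, gene 208715). It had 227, 290 and 326 CPM in the control libraries and 158, 181 and 193 CPM with butyrate. The highest butyrate library thus lay below the lowest control library. Its fold was 1.59 (log2 fold change -0.67, SE 0.137), with an edgeR adjusted p of 0.00415. Acat2, the cytosolic thiolase that supplies acetoacetyl-CoA, went from 70.1 ± 10.3 to 52.0 ± 5.27 CPM (SD, n = 3), a fold of 1.35 with a small gap, since the lowest control library held 58.1 and the highest butyrate library 58.0 CPM. Its adjusted p was 0.0228, and the call was lost without control replicate 2 (0.0846) or 3 (0.0834), without butyrate replicate 1 (0.064) or 2 (0.0733), and with upper quartile scaling (0.0523).

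The 3 enzymes that turn mevalonate into isopentenyl diphosphate were not called. Mvk, which encodes mevalonate kinase, had 20.7, 29.3 and 27.3 CPM in control and 23.3, 15.1 and 19.2 CPM with butyrate, so the groups overlapped through butyrate replicate 1 (edgeR adjusted p = 0.0912). Without that library its adjusted p was 0.0363, and without control replicate 1 it was 0.0383. Pmvk, the phosphomevalonate kinase gene, stood at 49.2 ± 3.89 and 40.9 ± 3.6 CPM (SD, n = 3) with no overlap (adjusted p = 0.0657, and 0.0446 without butyrate replicate 2). Mvd, the decarboxylase gene, stood at 38.6 ± 5.18 and 32.3 ± 4.13 CPM with overlap (adjusted p = 0.155, and 0.0467 with the replicate block). These 3 genes had log2 fold changes of -0.43, -0.27 and -0.26, of the same sign as those of the called enzymes.

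The next enzymes build farnesyl diphosphate, the branch point to sterols, ubiquinone and prenylated proteins. Idi1, the isopentenyl diphosphate isomerase gene (chromosome 13, 8885606 to 8892396, gene 319554), had 17.8, 29.1 and 26.6 CPM in control and 9.43, 13.6 and 13.7 CPM with butyrate. The mean with butyrate was 49.9% of that in control, and its fold of 2.0 was the largest of the 18 enzymes (log2 fold change -1.0, SE 0.216, edgeR adjusted p = 0.00532). Fdps, which encodes farnesyl diphosphate synthase (chromosome 3, 89093588 to 89101967, gene 110196), had 47.5, 60.5 and 61.2 CPM in control and 31.8, 34.6 and 30.7 CPM with butyrate. All 3 butyrate values lay close together and well under the control values (log2 fold change -0.80, SE 0.121, adjusted p = 0.000875).

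Squalene enzymes commit the pathway to sterols. Fdft1, the squalene synthase gene, went from 70.7 ± 7.9 to 51.2 ± 4.4 CPM (SD, n = 3, edgeR adjusted p = 0.00872). Its annotated span shares 774 bases with Ctsb, a cathepsin gene at 174 to 192 CPM in control and 270 to 316 CPM with butyrate, and how the counting treated reads of that stretch is not stated. Sqle, the squalene epoxidase gene and a control point of the pathway, had 125, 167 and 170 CPM in control and 95.1, 117 and 107 CPM with butyrate, a fold of 1.45 (SE 0.131 on the log2 scale, adjusted p = 0.00976). Its groups did not overlap, and replicate 1 was the lowest library in both. Lss encodes lanosterol synthase, which closes the first ring structure (chromosome 10, 76531565 to 76557139, gene 16987). Its levels were 71.5, 77.5 and 80.8 CPM in control and 41.2, 40.6 and 49.2 CPM with butyrate. The difference had the smallest adjusted p of the 18 enzymes (edgeR adjusted p = 0.000383, log2 fold change -0.81, SE 0.103).

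The late enzymes reshape lanosterol into cholesterol. Cyp51, the lanosterol demethylase gene, had 260, 307 and 313 CPM in control and 157, 202 and 205 CPM with butyrate (log2 fold change -0.64, edgeR adjusted p = 0.00287). Msmo1, the methylsterol monooxygenase gene, had 91.3, 133 and 121 CPM in control and 57.1, 79.6 and 68.6 CPM with butyrate (-0.75, adjusted p = 0.00508). In both genes replicate 1 was the lowest library of each group. Ebp, the sterol isomerase gene, went from 109 ± 5.76 to 82.3 ± 0.939 CPM (SD, n = 3, adjusted p = 0.00284). Sc5d, the sterol desaturase gene, went from 133 ± 15.8 to 97.6 ± 7.01 CPM (adjusted p = 0.008). Dhcr7, which encodes the reductase of the last step of the Kandutsch-Russell branch, went from 73.4 ± 2.89 to 53.2 ± 1.79 CPM (adjusted p = 0.00182). The folds of these 3 lay between 1.33 and 1.38, and their groups were apart.

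Of the 3 remaining enzymes, which also work on the sterol rings, 1 was called lower. Nsdhl, a sterol dehydrogenase gene on chromosome X, went from 50.3 ± 5.48 to 40.1 ± 1.27 CPM (SD, n = 3, edgeR adjusted p = 0.0316). Its call was lost in 7 of 15 alternatives, which were DESeq2 (0.0775), upper quartile scaling (0.0901) and the fits without control replicate 1 (0.109) or 2 (0.117) or without butyrate replicate 1 (0.0751), 2 (0.0626) or 3 (0.0617). Hsd17b7, the partner reductase gene, stood at 40.8 ± 2.77 and 33.7 ± 3.17 CPM with no overlap (adjusted p = 0.0653, 0.0358 with the replicate block and 0.0408 without butyrate replicate 3). Tm7sf2, a sterol reductase gene, was at 30 to 41 counts in a library and is the only enzyme of the 18 whose log2 fold change was above 0 (0.24, SE 0.192, adjusted p = 0.329). It had 5.58, 5.56 and 6.49 CPM in control and 7.40, 7.05 and 6.47 CPM with butyrate.

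Control and butyrate libraries with the same replicate number deviated together from their group means, so differences were also taken within each number. Within all 3 numbers, 16 of the 18 enzymes were lower with butyrate, and Mvk and Tm7sf2 were the exceptions. Replicate 1 was the lowest control library for 16 of the 18 enzymes and the lowest butyrate library for 11. The shares of all genes tested with these traits were not computed. With the replicate number as a block, 15 of the 18 were called lower, with Mvd and Hsd17b7 added to the 13. The block also gave more calls over all 11740 genes tested, 3095 lower and 3220 higher, where the main fit gave 2637 and 2756.

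**Figure D2:**
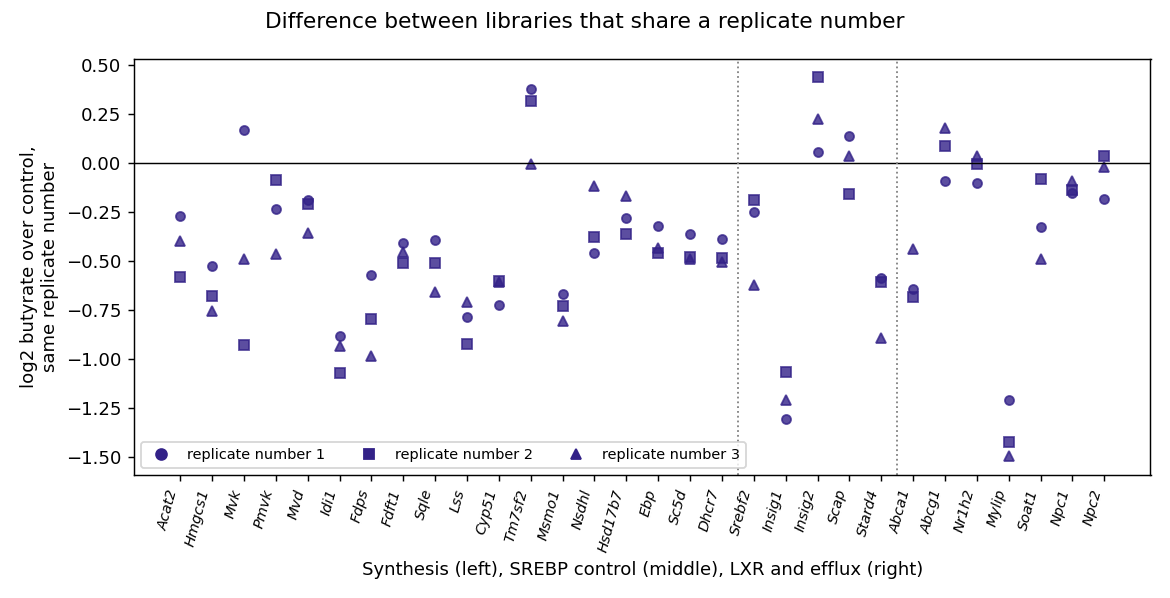
Log2 ratio of butyrate to control (CPM plus 0.5) between libraries of the same replicate number, for the 30 sterol genes tested. Each shape is a replicate number, and dotted lines part synthesis, SREBP control and LXR genes. Points of 16 of the 18 synthesis genes all lie under 0, and Mylip and Insig1 lie lowest.

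Levels can be set side by side between genes only per length, here as mean CPM per kilobase of annotated exon. In control cells Hmgcs1 stood at 80.7, Cyp51 at 74.6, Ebp at 62.7, Msmo1 at 56.2 and Sqle at 55.7 CPM per kilobase. Idi1 (8.10), Hsd17b7 (8.08) and Tm7sf2 (3.47) were the lowest of the 18. With butyrate Hmgcs1 (50.8), Cyp51 (47.8) and Ebp (47.2) were still the highest, and these 3 levels differed by less than the spread between replicates of Cyp51.

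SREBP control genes divided into members called lower and members without a call. Insig1, Stard4 and Srebf2 were called lower, and Insig2 and Scap were not called, where 22.5% of all genes tested were called lower. Insig1 encodes the INSIG protein whose gene is itself an SREBP target (chromosome 5, 28071412 to 28078662, gene 231070). It had 134, 163 and 162 CPM in control and 53.8, 77.4 and 69.5 CPM with butyrate. The groups were far apart, at a fold of 2.28 (log2 fold change -1.19, SE 0.139, edgeR adjusted p = 0.000251). The whole span of Insig1 lies within that of the long noncoding RNA gene Gm35223, for which the deposited counts hold no values. Reads of Gm35223 cannot be told apart from those of Insig1 without strand.

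Insig2, whose protein does the same work but whose gene is not known as an SREBP target, showed no such difference. It had 33.3, 23.4 and 29.0 CPM in control and 34.6, 31.8 and 34.0 CPM with butyrate, and the groups overlapped (log2 fold change 0.23, SE 0.136, edgeR adjusted p = 0.202). Taken per kilobase of exon, the ratio of Insig1 to Insig2 was 4.41, 7.64 and 6.09 in the control libraries and 1.70, 2.66 and 2.24 in the butyrate libraries. The ratios of the groups did not overlap. An exact permutation test, two-sided, gave p = 0.1, below which a design of 3 against 3 cannot go (0.1 also after adjustment over the 2 ratios computed). This ratio and that of Mylip to Abcg1 were chosen after the values were seen, so their p-values are descriptive only.

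Stard4, which encodes a soluble sterol carrier and is a known SREBP target, had 186, 192 and 205 CPM in control and 124, 126 and 110 CPM with butyrate. These groups lay well apart (log2 fold change -0.70, SE 0.085, edgeR adjusted p = 0.000323). Srebf2, the gene of SREBP2 itself (chromosome 15, 82147269 to 82205379, gene 20788), had 455, 450 and 537 CPM in control and 383, 394 and 349 CPM with butyrate. Its fold was smaller, at 1.28 (log2 fold change -0.36, SE 0.099, adjusted p = 0.0164), and the call was lost without control replicate 3 (0.0657). Scap, the gene of the escort protein, stood at 94.7 ± 4.86 and 95.1 ± 5.66 CPM (SD, n = 3), with a log2 fold change of 0.005 (SE 0.084, adjusted p = 0.969).

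**Figure D3:**
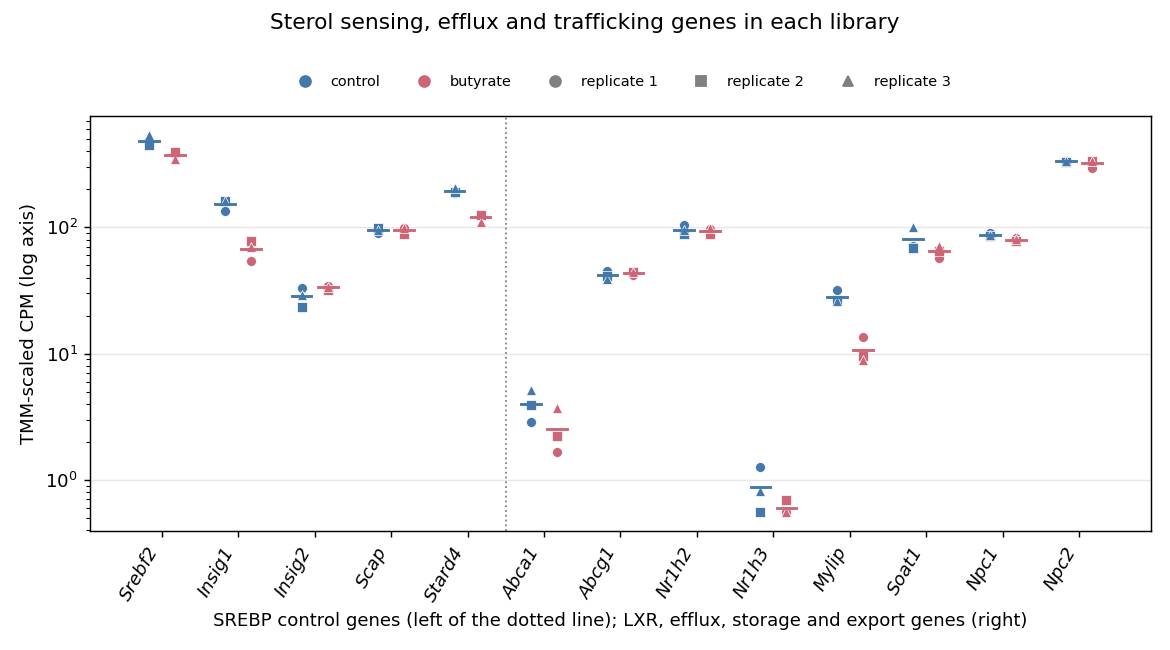
TMM-scaled CPM (log axis) of the SREBP control genes (left) and of the LXR, efflux, storage and export genes (right) in each of the 6 libraries. Points are libraries and bars are group means. Insig1, Stard4, Srebf2 and Mylip lie lower with butyrate with no overlap, while Scap, Nr1h2 and Abcg1 overlap.

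Since the synthesis genes and Insig1 were lower together, the bases before their start sites are shown for the members with the largest folds and for Hmgcs1 and Srebf2. Promoter windows of RefSeq (GRCm38.p6, 250 bases before to 50 after a start) were at hand for 25 of the 31 genes and for 15 of the 18 enzymes. Capitals mark the sterol regulatory element TCACNCCAC, the NF-Y box CCAAT, the Sp1 box GGGCGG and the E-box CACGTG on either strand, so that CCAAT also appears as ATTGG and GGGCGG as CCGCCC.
Hmgcs1 promoter, chr13:119690101-119690350, plus strand: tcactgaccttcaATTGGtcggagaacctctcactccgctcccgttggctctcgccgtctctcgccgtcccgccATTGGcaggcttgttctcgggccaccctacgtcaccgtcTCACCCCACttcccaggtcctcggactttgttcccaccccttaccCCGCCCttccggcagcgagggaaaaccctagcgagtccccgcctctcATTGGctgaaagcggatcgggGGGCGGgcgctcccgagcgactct
Idi1 promoter, chr13:8885356-8885605, plus strand: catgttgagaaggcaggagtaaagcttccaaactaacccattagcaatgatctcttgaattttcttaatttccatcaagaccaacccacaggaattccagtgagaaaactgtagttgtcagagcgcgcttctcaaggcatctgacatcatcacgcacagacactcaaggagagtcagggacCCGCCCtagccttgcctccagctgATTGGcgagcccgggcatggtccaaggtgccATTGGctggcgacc
Lss promoter, chr10:76531355-76531564, plus strand: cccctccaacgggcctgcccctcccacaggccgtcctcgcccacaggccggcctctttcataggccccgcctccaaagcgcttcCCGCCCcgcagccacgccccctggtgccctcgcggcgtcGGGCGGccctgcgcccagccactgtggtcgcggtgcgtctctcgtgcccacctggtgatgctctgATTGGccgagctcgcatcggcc
Insig1 promoter, chr5:28071162-28071411, plus strand: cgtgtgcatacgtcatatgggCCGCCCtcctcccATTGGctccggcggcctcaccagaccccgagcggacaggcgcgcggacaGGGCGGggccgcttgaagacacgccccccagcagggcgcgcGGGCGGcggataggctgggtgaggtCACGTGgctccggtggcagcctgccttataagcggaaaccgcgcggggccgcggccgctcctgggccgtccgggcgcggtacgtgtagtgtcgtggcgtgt
Srebf2 promoter, chr15:82147019-82147268, plus strand: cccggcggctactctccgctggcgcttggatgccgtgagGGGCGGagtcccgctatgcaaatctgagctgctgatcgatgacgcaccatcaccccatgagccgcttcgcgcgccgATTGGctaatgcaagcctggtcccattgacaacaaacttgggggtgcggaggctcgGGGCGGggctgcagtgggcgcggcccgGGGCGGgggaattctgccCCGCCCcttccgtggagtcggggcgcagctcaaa

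The stretch of Hmgcs1 holds 1 sterol regulatory element in this spelling, 3 NF-Y boxes and 2 Sp1 boxes. The other 4 stretches hold 0 such elements and 1 or 2 NF-Y boxes each. Insig1 holds 3 Sp1 boxes and 1 E-box, and Srebf2 holds 4 Sp1 boxes. Some genes have several windows, and a gene was counted where any of them held the motif. Over whole windows, the NF-Y box was found in 14 of the 15 enzymes (93.3%), and in 43.4% of the 9123 tested genes with a window. All 5 enzymes that were not called hold it, and the 1 without it, Acat2, was called lower. Dhcr7 holds it only in a window inside the gene (chr7:143829964-143830263), and not in those at its start. Of the same 15 enzymes, 14 hold a Sp1 box (93.3%, against 69.8% of tested genes) and 1 the sterol regulatory element (6.67%, against 1.37%). These matches are letters in a window and say nothing of binding in these cells.

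**Figure D4:**
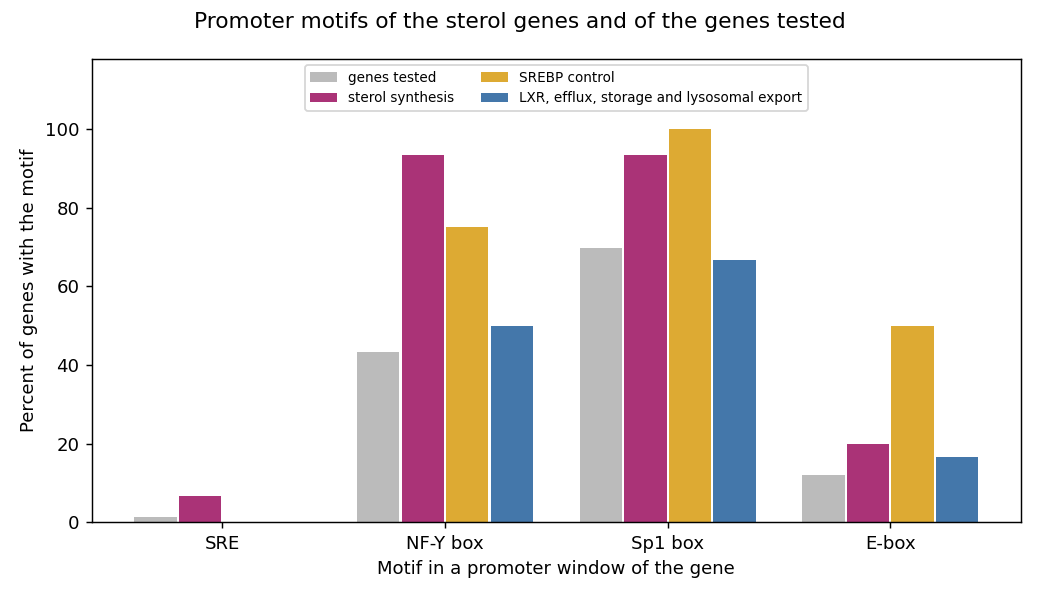
Percent of genes with each motif in a promoter window, for the 9123 tested genes with a window, 15 synthesis genes, 4 SREBP control genes and 6 LXR and efflux genes. The NF-Y box stands at 93.3% of the synthesis genes and 43.4% of the genes tested.

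Among the LXR and efflux genes, 1 of 7 tested was called lower and 0 higher, against 22.5% and 23.5% of all genes tested. That gene was Mylip, which encodes the ubiquitin ligase IDOL, an LXR-induced protein that sends lipoprotein receptors for breakdown (chromosome 13, 45389742 to 45411940, gene 218203). It had 31.9, 26.7 and 26.0 CPM in control and 13.5, 9.63 and 8.87 CPM with butyrate. This was the largest fold of all 30 sterol genes tested, at 2.64, with no overlap (log2 fold change -1.40, SE 0.174, edgeR adjusted p = 0.000352). The promoter stretch holds 3 NF-Y boxes and 1 Sp1 box, marked as above.
Mylip promoter, chr13:45389492-45389741, plus strand: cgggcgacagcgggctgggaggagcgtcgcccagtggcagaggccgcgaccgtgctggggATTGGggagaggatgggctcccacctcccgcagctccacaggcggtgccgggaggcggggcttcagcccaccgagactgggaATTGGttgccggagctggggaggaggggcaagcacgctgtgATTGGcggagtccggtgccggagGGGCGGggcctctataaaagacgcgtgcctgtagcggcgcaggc
No LXR element, a repeat of the half-site AGGTCA with 4 bases between, was found in the 6 windows of this group, nor in those of the 9123 tested genes. The search thus cannot set this group apart, and the absence says nothing of LXR control.

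The export pump genes, which are textbook LXR targets, were not called. Abcg1 had 45.0, 41.4 and 39.3 CPM in control and 42.2, 44.0 and 44.5 CPM with butyrate, so the groups overlapped (log2 fold change 0.06, SE 0.093, edgeR adjusted p = 0.634). Per kilobase of exon, the ratio of Mylip to Abcg1 was 1.5, 1.36 and 1.40 in control and 0.676, 0.462 and 0.421 with butyrate (exact two-sided permutation p = 0.1, the smallest possible, and 0.1 adjusted over the 2 ratios). Abca1 was near the detection limit, with 16, 21 and 32 counts in the control and 9, 13 and 20 in the butyrate libraries. Those counts equal 3.99 ± 1.16 and 2.53 ± 1.05 CPM (SD, n = 3), and the groups overlapped (log2 fold change -0.66, SE 0.36, edgeR adjusted p = 0.163, and 0.0581 with the replicate block). Within each of the 3 replicate numbers Abca1 was lower with butyrate, and its difference from Mylip was not tested. Replicate 3 was the highest library for Abca1 in both groups. It was also the highest for the macrophage gene Lyz2, at 45.6 and 37.7 CPM against 8.35 to 27.2 CPM in the others. Macrophage markers did not all follow, since Itgam was highest in replicate 1 of both groups (4.68 and 51.0 CPM). Ctss was highest in control replicate 1 (37.8 CPM) and in butyrate replicate 3 (61.9 CPM). The part of such cells in the Abca1 values was not tested.

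The LXR genes themselves differed greatly in level. Nr1h2, the gene of LXR beta, stood at 47.9 CPM per kilobase in control and 47.1 with butyrate. In single libraries it had 104, 88.5 and 96.0 CPM in control and 96.9, 88.0 and 98.5 CPM with butyrate, with overlap (log2 fold change -0.03, SE 0.091, edgeR adjusted p = 0.835). Nr1h3, the gene of LXR alpha, had 7, 3 and 5 counts in the control and 3, 4 and 3 in the butyrate libraries. Its level of 0.408 and 0.279 CPM per kilobase was too low to pass the filter, and a difference was not detectable at this depth. It is the only one of the 31 genes that was not tested.

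Of the 31 genes, those of storage and lysosomal export were not called in the main fit. Soat1, which encodes the enzyme that esterifies cholesterol for storage, had 71.5, 68.8 and 101 CPM in control and 57.0, 65.0 and 71.5 CPM with butyrate, with overlap (log2 fold change -0.32, edgeR adjusted p = 0.123, and 0.0236 with the replicate block). Npc1 and Npc2 encode the paired proteins that move cholesterol out of lysosomes. Npc1 stood at 87.6 ± 3.09 and 80.0 ± 2.33 CPM (SD, n = 3) with a narrow gap between the groups (log2 fold change -0.13, SE 0.077, adjusted p = 0.195). The span of Npc1 shares 8982 bases with Rmc1, at 15.5 to 22.7 CPM over the 6 libraries, so the split of reads between them is uncertain. Npc2 had 335, 329 and 338 CPM in control and 295, 337 and 333 CPM with butyrate (adjusted p = 0.62). At 101 CPM per kilobase it was the highest of the 31 genes in control.

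**Figure D5:**
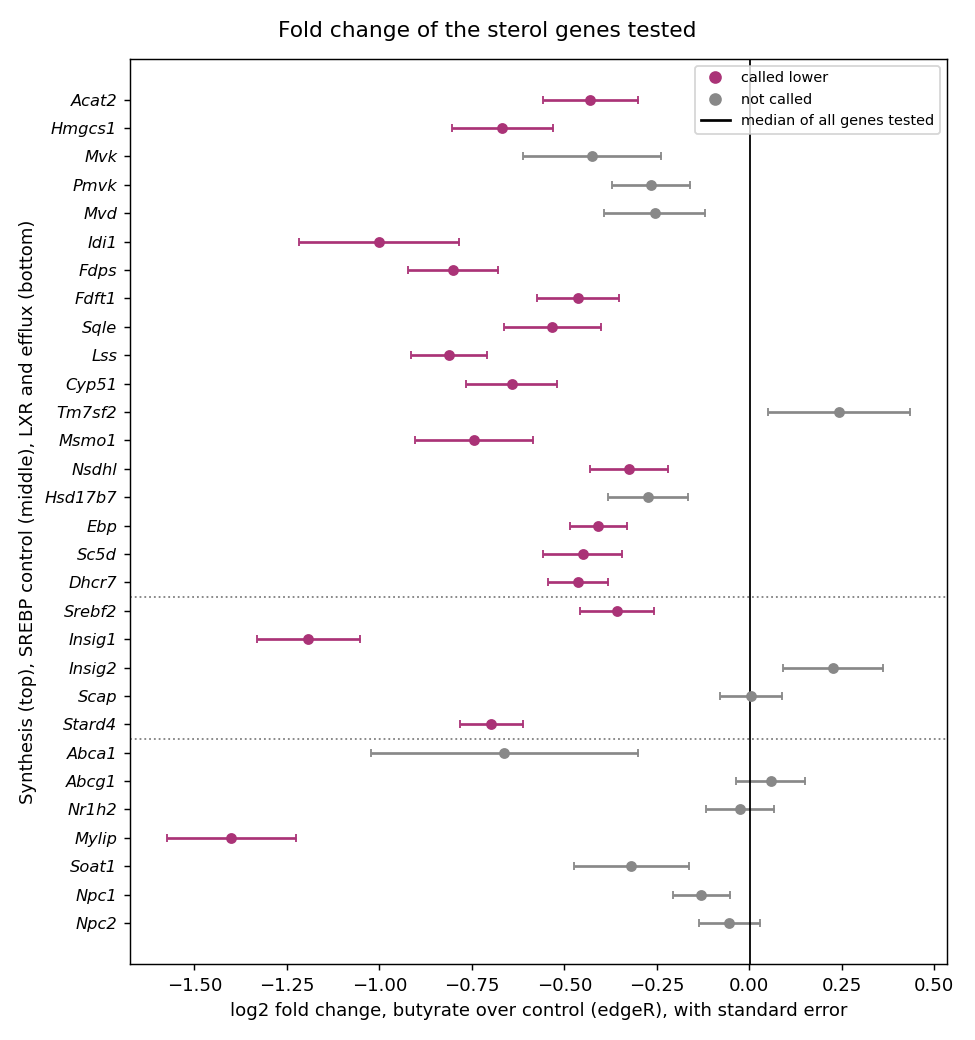
Log2 fold change of butyrate over control for the 30 sterol genes tested, with its standard error, from edgeR's quasi-likelihood test. Purple points are the 17 genes called lower, grey points the 13 not called, and the black line is the median of all genes tested (0.003). Mylip, Insig1 and Idi1 lie furthest left.

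Of 70 other tested genes of the pathway, in 4 lists, 20 were called lower (28.6%) and 13 higher (18.6%). These shares are near those of all genes tested, 22.5% and 23.5%. In the list of other synthesis enzymes and the non-sterol branches, 5 of 20 tested were called lower and 3 higher (median log2 fold change 0.13). Srd5a3, needed to make dolichol, went from 49.0 ± 4.89 to 26.1 ± 4.49 CPM (SD, n = 3, edgeR adjusted p = 0.00101). Icmt, which methylates prenylated proteins, rose from 135 ± 5.19 to 175 ± 5.42 CPM (adjusted p = 0.00388), and Coq2, a ubiquinone synthesis gene, from 63.5 ± 2.96 to 78.1 ± 5.88 CPM (adjusted p = 0.0235). Among the genes of SREBP processing and turnover, 7 of 17 tested were called lower and 1 higher (median -0.21). Tmem97, a sterol-regulated membrane protein gene, went from 141 ± 12.2 to 92.6 ± 3.44 CPM (adjusted p = 0.000783). The chaperone gene Hsp90aa1 rose from 389 ± 26.2 to 520 ± 9.93 CPM (adjusted p = 0.00344).

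LXR partners, targets and oxysterol enzymes were called lower in 2 of 12 tested and higher in 2 (median log2 fold change -0.07). Of all genes tested, 22.5% were called lower and 23.5% higher. Gpr183, an oxysterol receptor gene, had 33.1, 42.7 and 49.6 CPM in control and 7.58, 4.47 and 2.77 CPM with butyrate (edgeR adjusted p = 8.96e-05). Ncor1, a corepressor gene, went from 266 ± 3.57 to 169 ± 5.9 CPM (SD, n = 3, adjusted p = 0.000216). Sult2b1, a sterol sulfotransferase gene, rose from 10.6 ± 2 to 18.4 ± 1.11 CPM (SD, n = 3, adjusted p = 0.00401). Beside the same shares of all genes, uptake, transport and storage genes were called lower in 6 of 21 tested and higher in 7 (median -0.10). Of these, the lysosomal membrane gene Scarb2 went from 56.5 ± 6.12 to 34.3 ± 2.2 CPM (adjusted p = 0.000919), and Gramd1b, a gene of sterol transfer from the plasma membrane, from 33.7 ± 2.35 to 19.1 ± 3.06 CPM (0.00142). Stard5, a sterol carrier gene, rose from 12.1 ± 0.963 to 20.6 ± 1.7 CPM (adjusted p = 0.00176).

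For other cells of the spleen, marker genes were summed in each library. The 16 macrophage and dendritic cell markers summed to 48.8 to 120 CPM in control and 132 to 169 CPM with butyrate. Without Itgam, the sums of the groups would overlap. Of the 7 that were tested, Itgam (3.34 to 4.68 CPM in control, 33.3 to 51.0 CPM with butyrate) and Tyrobp (1.43 ± 0.683 to 3.02 ± 0.39 CPM, SD, n = 3) were called higher and 0 lower. Ctss reached 61.9 and Lyz2 45.6 CPM without a call in the main fit, while Adgre1 and Csf1r stood at 0 to 1.95 CPM. With the replicate block Ctss was called higher (edgeR adjusted p = 0.00862). The 9 B cell markers summed to 500 to 892 CPM in control and 181 to 555 CPM with butyrate, with Pax5 at 0 in all libraries. Nearly all of this came from immunoglobulin genes, which were not called in the main fit. With the replicate block, Ighm and Igkc were called lower (edgeR adjusted p = 0.00169 and 0.0235). The 1 B cell marker called in the main fit, Cd22, was higher (0.696 ± 0.129 to 4.04 ± 2.07 CPM, SD, n = 3). The 4 NK cell markers summed to 79.0 to 94.2 CPM in control and 62.1 to 75.8 CPM with butyrate, mostly from Eomes, a gene of activated T cells too, which was called lower. Klrb1c (3.39 ± 1.31 to 10.8 ± 1.87 CPM, SD, n = 3) and Klre1 (2.19 ± 0.837 to 5.41 ± 2.18 CPM) were called higher, against the direction of that sum. The 5 granulocyte markers summed to 0 to 0.973 CPM in control and 0.172 to 1.85 CPM with butyrate. The 4 erythroid markers matched summed to 0.162 to 0.36 CPM in control and 0.86 to 24.6 CPM with butyrate, higher in every butyrate library. The part of these cells in the sterol gene values was not tested.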

How the data were processed

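RNA was measured in 3 control and 3 butyrate libraries, grouped by their titles. The authors deposited raw read counts per gene. The submitters' processing notes list TopHat, featureCounts (Subread), CASAVA, Picard, edgeR and mm10, and the sources used here give no versions, roles or strand setting. Each column was matched by the label that names it. Names and coordinates (1-based) are from RefSeq GRCm38.p6, the assembly behind mm10 (25275 of 27179 numbers, 18 more from GENCODE), and exon lengths are unions of GENCODE exons.

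Butyrate was compared with control with edgeR 4.0.16 (R 4.3.3) by its quasi-likelihood F test, with TMM and filterByExpr, fitted on the whole table and tested on simulated data. SEs were derived from the F statistic, as absolute log2 fold change over its square root. Ratios of members, added after the data were seen, were tested in scipy 1.17.1. The 31 genes and all lists were chosen with earlier results of these data known. Named outside the 31 genes are up to 2 called genes per list and direction with the smallest p, and overlapping or marker genes where a result turns on them, chosen after their values were seen. A few genes of these lists are counted but not reported here by name.

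Libraries with the same replicate number correlated in their deviations from group means (0.362, 0.197 and 0.353), and others did not (-0.301 to -0.0746). The numbers were therefore read as pairing the libraries, from the data and not from the labels, and the blocked value stands where it changes a call. Alternatives were other scalings (total count, upper quartile, RLE), no filter, limma voom (3.58.1), robust edgeR, DESeq2 (1.42.0), a minimum of 5 CPM in 3 libraries, the block, each library left out, and, for the enzymes, glmTreat against a fold of 1.2. No replicate was a repeat of another within counting noise (chi-square over degrees of freedom 5.43 to 10.6). A count of 0 allows up to 3 counts, or 0.480 to 0.557 CPM, for counting error only.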

Additional observations from a re-analysis of the deposited data

How the results depend on the processing

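The number of enzymes called lower was 13 and ranged from 11 to 15 over the 15 alternatives of the whole fit, with 0 called higher in any of them, and was 9 by glmTreat against a fold of 1.2. Leaving out single libraries gave 11 to 13 enzymes. Over all 11740 genes tested, 2637 were called lower in the main fit, 2067 with upper quartile scaling, 3095 with the block and 1562 by glmTreat. SREBP control genes called lower numbered 3, except 2 without control replicate 3. With the replicate block, 2 LXR and efflux genes were called lower in place of 1, Soat1 being added, and the block changed no other call of the 31 genes than those of Soat1, Mvd and Hsd17b7. Hmgcs1, Idi1, Fdps, Fdft1, Sqle, Lss, Cyp51, Msmo1, Ebp, Sc5d, Dhcr7, Insig1, Stard4 and Mylip were called lower under all 15. Among genes not called, the sign of small differences varied with the setting, as for Scap (-0.03 to 0.09), Nr1h2 (-0.08 to 0.06) and Npc2 (-0.09 to 0.03). Depth limits Nr1h3 and Abca1, and Abca1 was left out by the minimum of 5 CPM. The motif shares printed for the enzymes were equal in the 250 bases upstream alone. The causes of these changes were not tested.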
